A study of Sus scrofa with 2 samples.

Results

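Cytokine, chemokine and Toll-like receptor genes were followed in a back muscle, the longissimus dorsi, of pigs kept in the heat. The genes were taken by name. They are the entries of the expression table whose pig gene symbol begins as an interleukin, a CC or CXC chemokine, a receptor of these, a Toll-like receptor, a STAT or IRF factor, or a member of the TNFSF, TNFRSF or TNFAIP series. IL18 and CCL5 were left out. In all, 114 of 27987 entries belonged to the set, with 38 ligands, 58 receptors, 12 STAT or IRF factors and 6 other proteins. The animals were DLY barrows, castrated males from Duroc boars and Yorkshire-Landrace sows, with a body weight of 79.0 ± 1.5 kg. Of 16 pigs from 8 litters, 8 lived at a constant 22 °C (the control arm) and 8 at a constant 30 °C (the heat arm) for 21 days. Each arm is represented by 1 poly(A) RNA library. The age of the pigs and the number whose RNA went into each library are not stated in the labels. No difference below therefore has a replicate check, and an effect of temperature cannot be told apart from differences between pigs or libraries.

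Cytokines are small secreted or membrane-bound proteins through which cells signal to each other. Interleukin receptors of the haematopoietin class carry JAK kinases, which phosphorylate STAT factors that then enter the nucleus. Toll-like receptors bind microbial molecules. Most of them, though not TLR3, signal like the interleukin-1 receptors through MYD88 and IRAK kinases to NF-kB. Some Toll-like receptors also use IRF factors. Chemokine receptors are G protein-coupled and guide the movement of leukocytes. TNF receptors recruit TRAF adaptors, and some carry a death domain. In skeletal muscle these pathways act both in the fibres and in the resident leukocytes, vessels and connective tissue, and a library of whole muscle mixes all of them. A lower value can thus come from fewer cells of a type or from less RNA per cell, which cannot be told apart here.

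Values are RPKM, in which reads are divided by gene length and library size. Levels of different genes can be compared only roughly, because the gene lengths used are not given. The whole reads behind each value were recovered from the table. The library totals were 23608242 reads for the control and 22863584 for the heat library, and 1 read on 1 kb of gene corresponds to 0.0424 and 0.0437 RPKM. Reads given below are the smallest that fit the values. Where the true reads are a multiple of them the interval is too wide, so an interval that holds 1 does not show equal levels. Ratios are heat over control. A log2 ratio is log2((heat RPKM + 1)/(control RPKM + 1)), which understates the difference of low genes, and was summarised over genes whose mean RPKM reached 1. A counting interval is the 95% Clopper-Pearson interval of the RPKM ratio from the recovered reads. It covers counting error in these 2 libraries and not the spread between pigs, and PCR copies make even that error too small. The tissue label held against its markers, since all 8 muscle fibre genes that could be matched, of 12 listed, were present, with summed levels of 168399 and 161793 RPKM.

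Most of the set was barely detected, and the few well expressed genes were receptors and factors. Of the 114 genes, 18 were listed at 0 in both libraries, 58 were detected with a mean RPKM under 1, and 38 had a mean of at least 1. Low levels were common outside the set too. Among the 27987 entries, 13191 reached this level, 8207 were detected below it and 6589 had no value above 0. The median of the mean RPKM was 0.195 for the set and 0.815 for the 27987 entries. The receptor TNFRSF12A was by far the highest, at 121.7 RPKM in the control and 68.4 in the heat library. It alone made up 30.8% (control) and 18.4% (heat) of the summed RPKM of the set. IL11RA, STAT5B, STAT5A and STAT3 came next, between 18.98 and 31.97 RPKM. The whole set took 0.0552% (control) and 0.0532% (heat) of the summed RPKM of all entries.

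**Figure D1:**
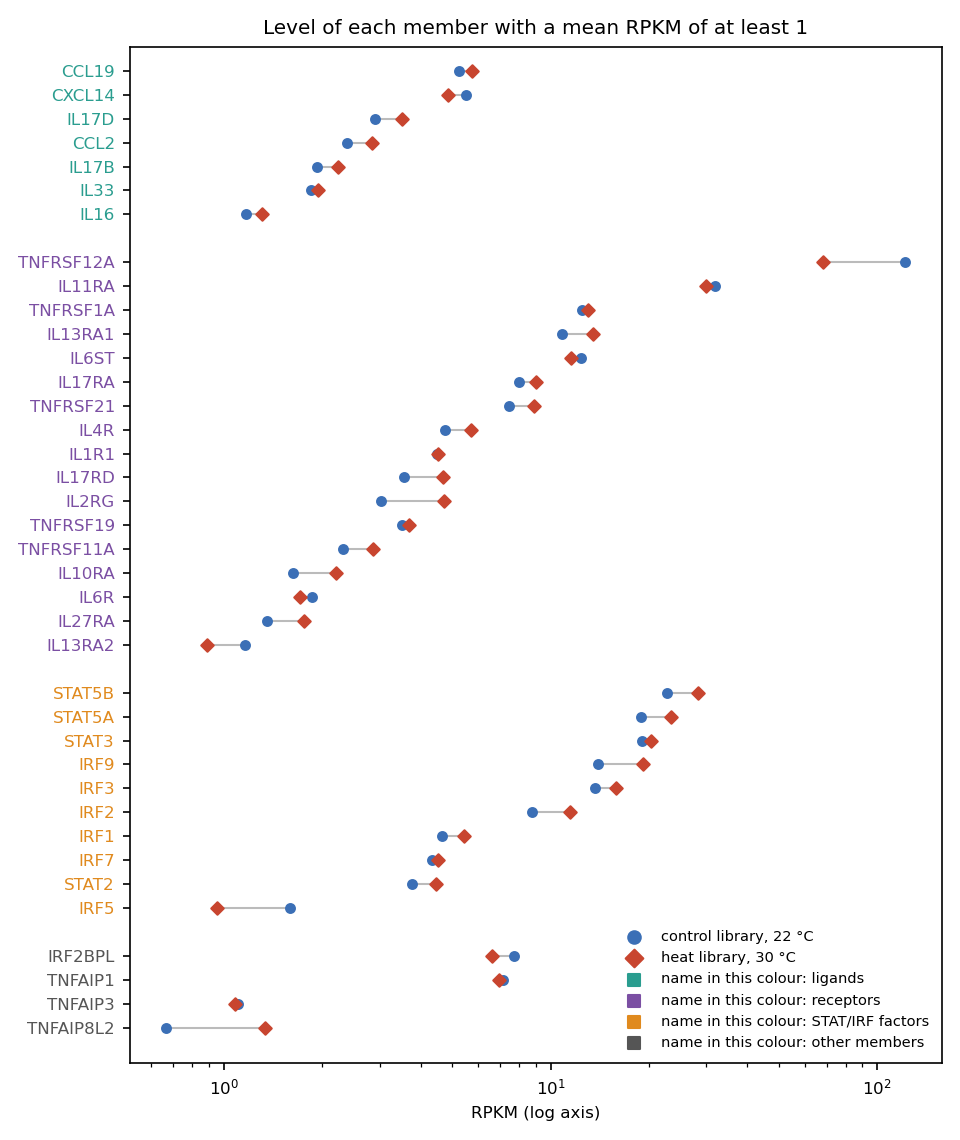
Level of each of the 38 genes whose mean RPKM reached 1, in the control library (circles) and the heat library (diamonds), on a log axis, ordered by mean level within each role. TNFRSF12A stands to the right of all others in both libraries, and its heat value lies well to the left of its control value.

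Between the libraries, TNFRSF12A was lower in the heat and most of the other well expressed genes were slightly higher. None of the 38 genes was 2-fold apart on the log2(RPKM + 1) scale, where 0.629% of all 13191 entries of the same level were 2-fold higher and 0.584% 2-fold lower. TNFRSF12A was the single gene at least 1.5-fold lower (2.63% of the 38, against 2.37% of all entries). No gene was 1.5-fold higher, against 3.44% of all entries. With no pseudocount 2 genes, IL2RG and TNFAIP8L2, were at least 1.5-fold higher, the latter just past 2-fold. The median log2 ratio of the 38 genes was 0.15, beside 0.05 over all entries, and 28 of them (73.7%) had a ratio above 0, beside 58.8% of all entries. With all ratios centred on the median of all entries 26 were above 0. The counting interval lay above 1 for 10 genes (26.3%, beside 20.6% of all entries with an interval) and below 1 for 3 (7.89%, beside 10.6%). The shares called by size and by interval are near the background, so they are no result about the set. All but TNFRSF12A lay within the central 95% of all entries, from -0.57 to 0.66.

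**Figure D2:**
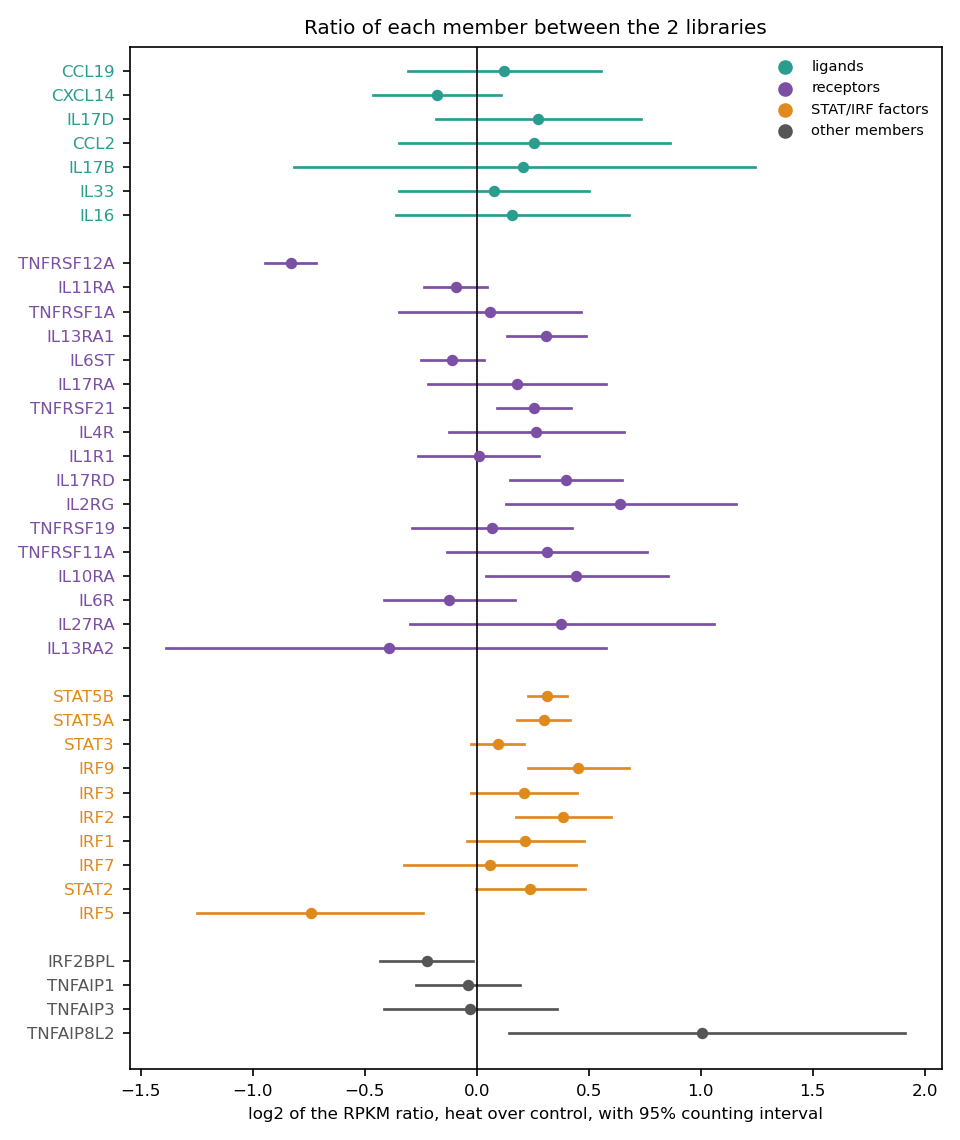
Log2 of the RPKM ratio (heat over control, no pseudocount) for the 38 genes whose mean RPKM reached 1. Points are ratios, bars are 95% counting intervals and the line at 0 marks equal levels. The bar of TNFRSF12A lies far below 0, and those of STAT5A, STAT5B, IRF2 and IRF9 lie above it.

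The ligands were low and no counting interval among them left out 1. Of 38 ligand genes, 12 were listed at 0 in both libraries, 19 had a mean RPKM under 1, and 7 passed. CCL19, a chemokine that draws lymphocytes and dendritic cells to lymphoid tissue, was at 5.26 RPKM in the control and 5.73 in the heat library. CXCL14, a chemokine made by many resting epithelial and stromal tissues, was at 5.49 and 4.86 RPKM. It was the one ligand of the 7 with the lower value in the heat, and its ratio of 0.884 had an interval of 0.725 to 1.08. IL17D and IL17B, ligands of the interleukin-17 family, were at 2.898 and 3.504 RPKM and at 1.93 and 2.23 RPKM. CCL2, the main chemokine for monocytes, was at 2.39 and 2.85 RPKM on 45 and 52 reads, a ratio of 1.19 (0.785 to 1.82). IL33, an alarmin held in the nucleus of stromal cells, was at 1.84 and 1.94 RPKM, and IL16, which attracts CD4+ cells, at 1.17 and 1.31. The median log2 ratio of the 7 was 0.10. Over all 26 ligands detected, 13 were higher and 13 lower in the heat library, beside 58.5% higher among all detected entries.

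Several ligands best known from working muscle or from inflammation rested on a handful of reads. IL15, a cytokine that supports natural killer and memory T cells and that muscle also makes, stood at 0.628 RPKM in the control and 0.987 in the heat library. That is 23 and 35 reads, a ratio of 1.57 with an interval that holds 1 (0.903 to 2.79). CXCL2, a neutrophil chemokine, was at 0.700 and 0.964 RPKM on 6 and 8 reads. IL6, the inflammatory cytokine that contracting muscle also releases, had 1 read in the control library and was listed at 0 in the heat library. CXCL8, another neutrophil chemokine, had 1 read in the heat library and was listed at 0 in the control. The anti-inflammatory IL10 had 1 and 7 reads (0.0319 and 0.231 RPKM). At these reads a difference was not detectable. The other low ligands were CCL25, CCL27, CCL3L1, CXCL11, IL1A, IL5, IL7, IL12A, IL12B, IL17A, TNFSF9, TNFSF13B, TNFSF14 and TNFSF18. Leaving out CXCL2 and IL15, no low ligand passed 0.444 RPKM or 8 reads. CCL1, CCL17, CCL28, IL4, IL9, IL13, IL19, IL20, IL21, IL22, IL24 and TNFSF4 were listed at 0 in both. A count of 0 allows up to 3 reads, which on a gene of 1 kb is 0.127 RPKM in the control and 0.131 in the heat library. This bound covers the sampling of reads only. Whether the gene models of the build could take up reads of these genes was not tested.

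Among the TNF receptors, TNFRSF12A was lower in the heat library while the 4 others whose mean RPKM reached 1 had slightly higher values there. Of all entries past that level, 58.8% had a log2 ratio above 0. TNFRSF12A (ENSSSCG00000027130), also called Fn14, is the receptor for the cytokine TWEAK and is known to be induced in injured or denervated muscle. It went from 121.7 to 68.4 RPKM on 1830 and 996 reads. The ratio was 0.562 with a counting interval of 0.520 to 0.607, and the log2 ratio was -0.82. Only 8 of the 1012 entries with a mean RPKM of at least 50, TNFRSF12A among them, had a log2 ratio that low, and over all 13191 entries it was number 144 from the lowest. TNFRSF21, a death domain receptor, was at 7.45 and 8.89 RPKM, a ratio of 1.19 (1.06 to 1.34). TNFRSF1A, the main receptor for TNF, was at 12.5 and 13.05 RPKM (0.787 to 1.38), and TNFRSF19 at 3.51 and 3.68 (0.817 to 1.34). Centred on the median of all entries, their log2 ratios were 0.0060 and 0.0036. TNFRSF11A, the receptor RANK of bone-resorbing cells, was at 2.31 and 2.87 RPKM, a ratio of 1.24 whose interval holds 1 (0.912 to 1.695). Its soluble counterpart TNFRSF11B, osteoprotegerin, lay just under the level limit at 1.11 and 0.860 RPKM on 44 and 33 reads. TNFRSF4 and TNFRSF9, receptors of activated T cells, had at most 5 reads in either library. Without TNFRSF12A the summed level of the TNF receptors was 27.2 RPKM in the control and 29.7 in the heat library.

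TNFRSF12A is made by several cell types of muscle, and the marker sums of these cell types differed in both directions. The 8 fibroblast markers matched of 9 listed summed to 975.2 RPKM in the control and 881 in the heat library (ratio 0.904), and the intervals of 5 lay below 1. The 3 adipocyte markers matched of 7 summed to 24.4 and 15.96 RPKM, all with intervals below 1. The 3 satellite cell markers matched of 5 summed to 27.3 and 24.7 RPKM. The sums of vessel markers were higher in the heat library. The 6 endothelial markers matched of 10 summed to 141.8 and 160.1 RPKM, with 3 intervals above 1 and none below. The 4 smooth muscle markers matched of 7 summed to 94.0 and 105.3 RPKM, with 1 interval above 1 and 2 below. Most of the fibroblast sum was COL3A1 (484.1 and 438.6 RPKM) and COL1A2 (203.4 and 164.4 RPKM). Of the 8 fibroblast markers, 3 had the higher value in the heat library. Most of the endothelial sum was PECAM1 (110.8 and 126.9 RPKM). Most of the smooth muscle sum was ACTA2 (52.0 and 67.9 RPKM), and the median log2 ratio of the smooth muscle markers was -0.07. None of these markers was at 0 in both libraries. Over all entries 20.6% of intervals lay above 1 and 10.6% below. The interval counts are not like for like with these shares, because genes with more reads have narrower intervals. The median level was 38.4 RPKM for the fibroblast markers and 4.79 for all entries that reached 1. The part of these cells in the TNFRSF12A value was not tested.

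**Figure D3:**
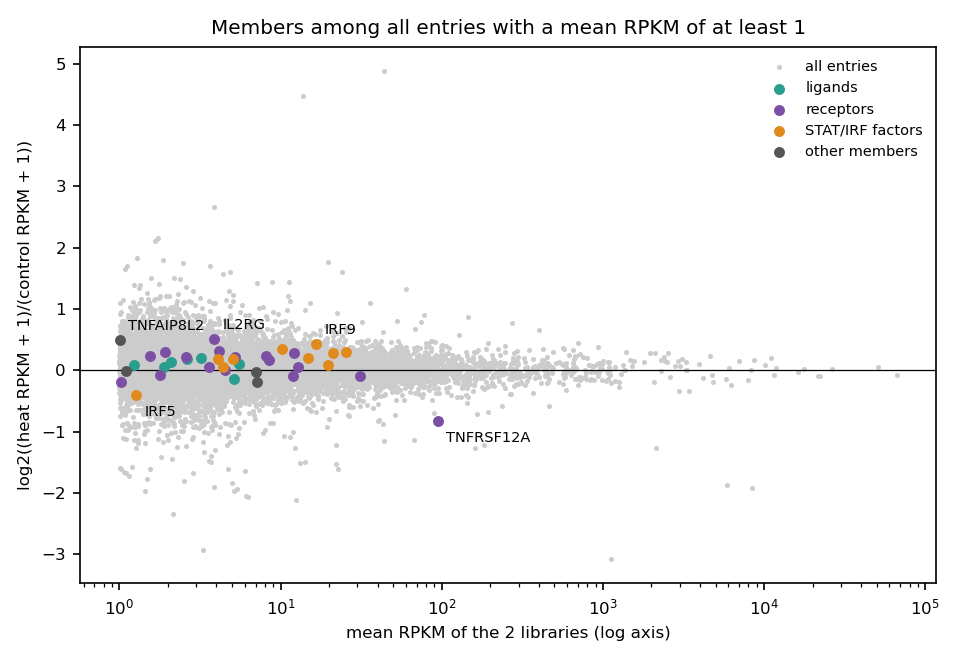
Log2 ratio (heat over control, with 1 added to each RPKM) against mean RPKM on a log axis, for all 13191 entries with a mean RPKM of at least 1 (grey) and for the 38 genes of the set by role (colours). TNFRSF12A lies at the lower edge of the entries of its level, while the other genes lie inside the grey cloud.

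The shared chain of a large interleukin receptor group was higher in the heat library. Of the 6 chains that pair with it, 5 had the lower value there, as did 8880 of 21398 detected entries. This grouping was not planned. IL2RG, the common gamma chain used by the receptors for interleukins 2, 4, 7, 9, 15 and 21, went from 3.03 to 4.73 RPKM on 55 and 83 reads. Its ratio of 1.56 had an interval of 1.095 to 2.23, and its log2 ratio of 0.51 was the highest of the 38 genes with a pseudocount of 1. With a pseudocount of 0.1 or none that of TNFAIP8L2 was higher. IL2RG overlaps another gene in RefSeq's Sscrofa11.1 table, so its reads are uncertain. IL4R, which pairs with it to bind interleukin 4, was at 4.75 and 5.71 RPKM, a ratio of 1.20 (0.917 to 1.58). The other partners are chains of lymphocytes and all had a mean RPKM under 1. IL2RB was at 0.748 and 0.660 RPKM on 69 and 59 reads. IL21R was at 0.539 and 0.343 RPKM on 26 and 16 reads. IL2RA, the high-affinity chain of activated and regulatory T cells, was at 0.423 and 0.146 RPKM on 12 and 4 reads. IL7R and IL9R had 3 and 1 reads and 8 and 3 reads. The interval of each of these 5 partners holds 1, so the lower values are within counting error, and the difference between IL2RG and its partners was not tested.

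IL13RA1 and IL10RA were also higher in the heat library beyond counting error. IL13RA1, which joins IL4R to form the receptor for interleukin 13 outside the blood lineages, was at 10.86 RPKM in the control and 13.5 in the heat (ratio 1.24, 1.097 to 1.404). IL13RA2, a decoy receptor for the same ligand, was at 1.16 and 0.885 RPKM on 23 and 17 reads, with an interval that holds 1 (0.383 to 1.49). IL10RA, the ligand-binding chain of the interleukin-10 receptor on leukocytes, was at 1.62 RPKM in the control and 2.21 in the heat (ratio 1.36, 1.03 to 1.81). IL27RA was at 1.36 and 1.76 RPKM with an interval that holds 1 (0.814 to 2.08). IL17RD, a membrane protein of the interleukin-17 receptor family that also restrains fibroblast growth factor signalling, was at 3.56 RPKM in the control and 4.69 in the heat (ratio 1.32, 1.11 to 1.57). IL17RA, the chain shared by interleukin-17 receptors, was at 7.99 and 9.05 RPKM with an interval that holds 1 (0.860 to 1.49). IL1R1, the signalling receptor for interleukin 1, was at 4.50 and 4.53 RPKM, and its sign turned under rescaling. The accessory chain IL1RAP was low, at 0.164 and 0.317 RPKM on 8 and 15 reads.

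The receptor chains of the interleukin-6 family had ratios on both sides of 1. IL6ST, the signalling chain gp130 that the whole family shares, was at 12.4 and 11.5 RPKM, a ratio of 0.928 (0.841 to 1.02). IL11RA, the binding chain for interleukin 11, was the highest interleukin receptor at 31.97 and 29.9 RPKM (0.849 to 1.03), and IL6R, that for interleukin 6, was at 1.85 and 1.70 RPKM (0.750 to 1.13). These 3 lay slightly below 1 with intervals that hold it, whereas IL27RA, a further partner of gp130, lay above 1 at the values given before. More partners of gp130 stood in the list of further cytokines and receptors. CNTFR, the binding chain for ciliary neurotrophic factor, was at 28.6 RPKM in the control and 37.7 in the heat (ratio 1.32, 1.22 to 1.42). LIFR, the chain for leukaemia inhibitory factor, was at 21.8 RPKM in the control and 26.9 in the heat (ratio 1.24, 1.17 to 1.31). OSMR, the chain for oncostatin M, was at 1.354 and 1.56 RPKM with an interval that holds 1 (0.917 to 1.44). No difference between these chains was tested.

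The remaining interleukin receptors were near or at 0. IL12RB1, IL12RB2, IL18R1, IL18RAP, IL1R2, IL1RAPL2, IL20RA and IL31RA had at most 3 reads in either library. IL1RAPL1, IL1RL2, IL5RA, IL22RA2 and IL23R were listed at 0 in both. Over the 12 interleukin receptors whose mean RPKM reached 1 the median log2 ratio was 0.19, with 8 above 0. Over all entries the median was 0.05, with 58.8% above 0. Over all 26 detected, 12 were higher and 14 lower in the heat library, beside 58.5% higher among all detected entries. Many of the 14 low receptors had at most 3 reads in either library, so no direction can be read from them.

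All 10 Toll-like receptors were detected and all had a mean RPKM under 1. They run from TLR3, a sensor of double-stranded RNA in endosomes, at 0.714 and 0.7196 RPKM, down to TLR10 on 1 and 3 reads. TLR5, the receptor for bacterial flagellin, went from 0.369 to 0.779 RPKM on 23 and 47 reads. Its ratio of 2.11 had a counting interval of 1.26 to 3.64, and it was the one gene among the 45 low genes with reads in both libraries whose interval left out 1. The intervals of the other 44 held 1. Counting error alone can put 1 of 45 intervals off 1, so this interval does not set TLR5 apart. No share over all low entries was at hand to set beside it. TLR5 was singled out after its value was seen. TLR4, the receptor for bacterial lipopolysaccharide, was at 0.609 and 0.755 RPKM on 35 and 42 reads (0.772 to 2.00). TLR2, which binds bacterial lipoproteins, was at 0.417 and 0.331 RPKM on 13 and 10 reads, and its partner TLR1 at 0.306 and 0.426 RPKM on 20 and 27. Of the nucleic acid sensors of endosomes, TLR8 had 8 and 15 reads, TLR9 10 and 15, and TLR7 12 and 8. In all, 8 of the 10 had the higher value in the heat library and 2 the lower, beside 58.5% higher among all detected entries, and their summed level was 2.88 RPKM in the control and 3.66 in the heat library. TLR1, TLR6 and TLR10 are close relatives, so reads could be shared among them.

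The chemokine receptors described here also had a mean RPKM under 1. CCR1, a receptor of monocytes and other leukocytes, was at 0.232 and 0.254 RPKM on 16 and 17 reads. CCR3, CCR7, CCR9, CCR10, CXCR3, CXCR5 and CXCR6 had at most 8 reads in either library. CCR1, CCR3, CCR7 and CCR9 had the higher value in the heat library and CCR10, CXCR3, CXCR5 and CXCR6 the lower, so they showed no common direction.

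**Figure D4:**
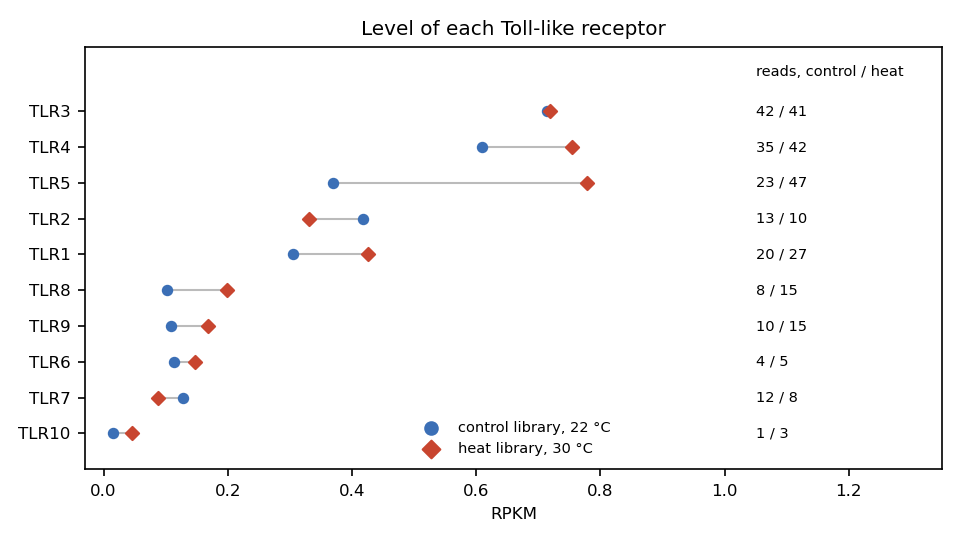
RPKM of the 10 Toll-like receptors in the control library (circles) and the heat library (diamonds), with the recovered reads of both libraries at the right. TLR5 has the widest gap, from 0.369 to 0.779 RPKM, and only TLR2 and TLR7 have the lower value in the heat library.

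The STAT and IRF factors were the best expressed group by median, and 9 of the 10 whose mean RPKM reached 1 were higher in the heat library. Over all entries 58.8% had a log2 ratio above 0. The median log2 ratio of the 10 factors was 0.19, beside 0.05 over all entries. The intervals of 4 lay above 1 and of 1 below it, beside 20.6% and 10.6% of all entries. These shares are not like for like, because genes with more reads have narrower intervals. The median level was 12.4 RPKM for the 10 factors and 4.79 for all entries that reached 1. STAT5A and STAT5B are 2 of the 4. STAT5B, the factor downstream of growth hormone in muscle and liver, went from 22.7 to 28.3 RPKM on 1970 and 2372 reads, a ratio of 1.24 (1.17 to 1.32). STAT5A, its close relative, went from 18.98 to 23.4 RPKM on 1081 and 1288 reads, a ratio of 1.23 (1.13 to 1.34). The 2 genes lie side by side and are near copies, so reads could be shared between them and the split is uncertain. STAT3, which carries the signal of the interleukin-6 family and lies next to STAT5A, was at 19.1 and 20.4 RPKM, a ratio of 1.07 (0.982 to 1.16). STAT4, a factor of lymphocytes, had 4 and 3 reads.

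STAT2 and IRF9 are parts of the complex that switches on interferon-induced genes. IRF9 went from 13.99 to 19.1 RPKM on 286 and 379 reads, a ratio of 1.37 (1.17 to 1.60) and a log2 ratio of 0.43. STAT2 was at 3.77 and 4.45 RPKM, a ratio of 1.18 whose interval just holds 1 (0.998 to 1.396). IRF2, which can repress interferon-induced genes, was at 8.797 RPKM in the control and 11.5 in the heat (ratio 1.31, 1.13 to 1.52). IRF1, its activating counterpart, was at 4.67 and 5.42 RPKM, a ratio of 1.16 (0.970 to 1.39). IRF3, which responds to viral nucleic acid, was at 13.7 and 15.8 RPKM (0.982 to 1.36), and IRF7, which amplifies the interferon response, at 4.33 and 4.51 (0.798 to 1.36). The sign of IRF7 turned under rescaling.

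IRF5 was the factor that went the other way. This factor, which acts below Toll-like receptors in macrophages and other myeloid cells, stood at 1.59 RPKM in the control and 0.955 in the heat library on 93 and 54 reads. Its ratio was 0.5996 with an interval of 0.421 to 0.847, and its log2 ratio of -0.41 was the second lowest of the set. With no pseudocount it was 1.67-fold lower and so past 1.5-fold.

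Of the 6 other proteins, 4 reached a mean RPKM of 1. The interval of 1 of them lay above 1 and of 1 below (25% each). Over all entries these shares were 20.6% and 10.6%, and 4 genes are too few to set against them. TNFAIP8L2, known as TIPE2, a brake on Toll-like and T cell receptor signalling in leukocytes, went from 0.667 to 1.34 RPKM on 18 and 35 reads. The ratio was 2.01 with a wide interval of 1.11 to 3.77, and the log2 ratio with the pseudocount was 0.49. Its mean of 1.003 RPKM was just inside the level limit of 1, where TNFRSF11B at 0.985 was just outside. IRF2BPL, a nuclear protein of the IRF2 binding family, was at 7.71 and 6.60 RPKM, a ratio of 0.856 (0.742 to 0.988). TNFAIP1 was at 7.13 and 6.95 RPKM. TNFAIP3, the ubiquitin-editing enzyme A20 that NF-kB induces and that limits it, was at 1.11 and 1.08. Both held 1 in their intervals and turned sign under rescaling. IL4I1, an amino acid oxidase of antigen-presenting cells, was at 0.751 and 0.423 RPKM on 33 and 18 reads (0.299 to 1.03), and TNFAIP6 was listed at 0 in both libraries.

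IL2RG, IL10RA, TNFAIP8L2 and IRF5 are chiefly genes of leukocytes, and leukocyte markers had values on both sides, by list and by gene. The 7 general leukocyte markers matched of 10 listed summed to 42.4 RPKM in the control and 41.2 in the heat library. The interval of 1 of them lay above 1 and of 1 below, beside 20.6% and 10.6% of all entries. The 9 macrophage markers matched of 14 summed to 31.9 and 33.6 RPKM, and the 10 markers of T and natural killer cells matched of 15 to 9.87 and 10.8. B cell markers, 5 of 8 matched, summed to 0.450 and 0.835 RPKM. None of these was at 0 in both libraries. The 3 neutrophil and mast cell markers matched of 8 summed to 2.05 and 2.73 RPKM. Of them S100A8, an abundant neutrophil protein, was at 0.246 and 0.846 RPKM with an interval that holds 1 (0.886 to 19.5), KIT, a mast cell receptor, was at 1.81 and 1.88, and the neutrophil enzyme MPO was listed at 0 in both. Within the macrophage and the T and natural killer cell lists, single markers had intervals on both sides of 1. The part of leukocyte number in the values of the 4 genes was not tested.

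The other genes of these pathways were taken from 8 lists. Over all entries whose mean RPKM reached 1, the median log2 ratio was 0.05 and 58.8% were above 0. These values are the background for each list. Among the list genes whose mean RPKM reached 1, none was 2-fold apart on the log2(RPKM + 1) scale. Of the JAK kinases, SOCS and PIAS proteins and phosphatases, 14 of 20 were matched and 13 reached a mean RPKM of 1, with a median log2 ratio of 0.07 and 9 above 0. SOCS5, an inhibitor of cytokine receptors, was highest (4.19 and 5.38 RPKM, ratio 1.28, 1.07 to 1.55), followed by PIAS3, an inhibitor of STAT3 (3.21 and 3.84, ratio 1.196, 1.02 to 1.404). The phosphatases PTPN6 (2.64 and 2.28 RPKM) and PTPN11 (20.2 and 18.4, ratio 0.911, 0.843 to 0.985) were lowest. The kinase JAK1 was at 30.6 and 32.8 RPKM and was singled out as the highest of the kinases by level.

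Further cytokines and their receptors outside the naming rule had a higher value in the heat library in 6 of 7 cases, beside 58.8% of all entries. Of 28 listed genes 14 were matched, and 7 reached a mean RPKM of 1. Their median log2 ratio was 0.22 and 3 intervals lay above 1, those of CNTFR, LIFR and GHR, beside 20.6% of all entries. Their median level was 14.97 RPKM, beside 4.79 for all entries that reached 1, so the interval shares are not like for like. GHR, the growth hormone receptor, was at 23.4 RPKM in the control and 28.7 in the heat (ratio 1.23, 1.09 to 1.38). CSF1R, the receptor that macrophages need for survival, was at 2.42 and 2.41 RPKM, and OSMR was the next lowest.

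The lists from Toll-like receptors to NF-kB had medians near 0, beside 0.05 over all entries, of which 58.8% were above 0. Of 24 adaptors and partners of Toll-like receptors 18 were matched, and the 14 that reached a mean RPKM of 1 had a median log2 ratio of 0.03 with 9 above 0. They ran from TIRAP, a bridging adaptor (1.34 and 0.854 RPKM), and TRAF3 (2.24 and 2.06) to TAB3 (3.15 and 3.87, ratio 1.23, 1.048 to 1.44) and the kinase IRAK4 (2.04 and 2.85, 0.969 to 2.02). MYD88, singled out as the adaptor of most Toll-like receptors, was at 7.55 and 7.83 RPKM. LY96, the partner that TLR4 needs to bind lipopolysaccharide, and IRAK3, a brake on this pathway, lay under the level limit and were picked out after their values were seen. LY96 went from 0.616 to 1.36 RPKM (1.16 to 4.38) and IRAK3 from 0.220 to 0.909 (1.50 to 14.1). Of 22 NF-kB genes 19 were matched, and the 17 that passed had a median of -0.0039 with 8 above 0. The inhibitors NFKBIE (1.61 and 2.15 RPKM, 0.999 to 1.80) and NFKBIA (16.7 and 19.2, ratio 1.15, 1.04 to 1.27) were highest. MAP3K14, the kinase NIK that starts the non-canonical NF-kB branch below several TNF receptors, was lowest. It was at 13.4 RPKM in the control and 9.77 in the heat (ratio 0.731, 0.656 to 0.814), and NFKB1 came next at 13.9 and 12.1 RPKM (0.668 to 1.13).

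Of 27 further TNF pathway genes 17 were matched, and the 6 that passed had a median of 0.04 with 4 above 0. BIRC3, a ubiquitin ligase that TRAF2 recruits to TNF receptors, was highest at 10.06 and 12.6 RPKM, a ratio of 1.26 (1.096 to 1.44). CFLAR, which blocks caspase activation, followed at 6.996 and 7.96 RPKM. RELT and CASP8 lay under the level limit and were picked out after their values were seen. RELT, a TNF receptor relative, was at 1.25 and 0.448 RPKM (0.220 to 0.566), and CASP8, the caspase of death receptors, at 0.560 and 0.279 (0.243 to 0.974). MAP3K5, a stress kinase picked in the same way, was at 0.754 and 1.20 RPKM (1.16 to 2.21). Among those that passed, FAS (1.24 and 1.052 RPKM) and TRAF2 (21.7 and 21.5) were lowest, both with intervals that hold 1. Of 14 further chemokine pathway genes 9 were matched, and all 5 that passed were below 0, as were 5431 of all 13191 entries. Their median was -0.06 and no interval left out 1. The arrestins ARRB1 (5.74 and 4.37 RPKM) and ARRB2 (5.997 and 5.87) and the kinase GRK2 (27.6 and 26.5) end signalling of G protein-coupled receptors, and ACKR3 (7.86 and 7.39) is a scavenging receptor. Of 14 intracellular sensors 9 were matched, and the 4 that passed had a median of -0.02. The viral RNA sensors IFIH1 (1.19 and 1.48 RPKM) and RIGI (1.59 and 1.47), their adaptor MAVS (33.23 in both) and STING1 (5.32 and 5.11) all held 1 in their intervals.

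Interferon-induced genes, on which STAT2 and IRF9 act, had a higher value in the heat library in 11 of 13 cases, beside 58.8% of all entries. Of 25 listed genes 20 were matched, and the 13 that reached a mean RPKM of 1 had a median log2 ratio of 0.16. ISG20, PSMB8 and TAP1 were listed at 0 in both libraries. The intervals of 6 (OAS2, GBP2, RSAD2, MX2, IFI44L and MX1) lay above 1 and of none below, beside 20.6% and 10.6% of all entries. OAS2, an antiviral enzyme, was highest, at 4.51 and 7.89 RPKM, a ratio of 1.75 (1.52 to 2.02). GBP2, a guanylate-binding protein, went from 2.48 to 3.71 RPKM (ratio 1.496, 1.03 to 2.20). USP18, a brake on the interferon receptor, and IFI35 were the lowest, at 2.22 and 1.596 RPKM and at 4.69 and 4.30, with intervals that hold 1. Earlier results of these data showed a list that shares several of these genes, so this is not independent of them.

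**Figure D5:**
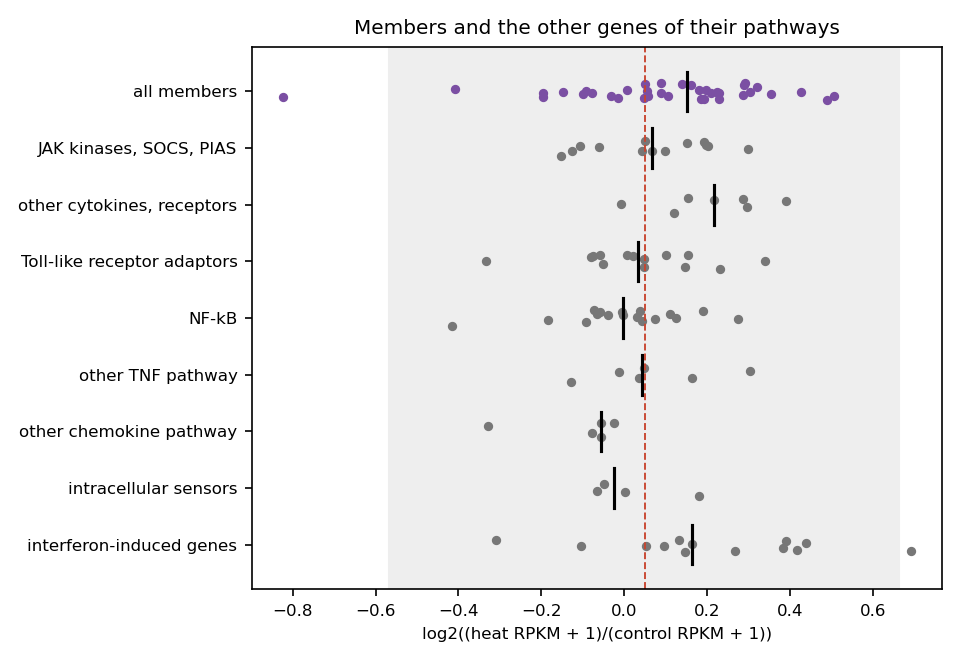
Log2 ratio (heat over control, with 1 added to each RPKM) of the 38 genes of the set (top row) and of the genes of 8 pathway lists that reached a mean RPKM of 1. Each dot is a gene, black bars are medians, the dashed line is the median of all entries (0.05) and the grey band holds 95% of all entries. The list medians lie between -0.06 and 0.22.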

How the data were processed

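RNA of 2 muscle libraries was compared, 1 for each temperature. The authors deposited 1 RPKM value per gene and library. Per the submitters' processing notes, which give no roles, the tools were TopHat 1.4.0, Bowtie and Cufflinks 1.3.0, and the build was Sscrofa10.2. Read counting and gene lengths are not given in the sources used here. Of 27987 entries, 22740 had an Ensembl pig identifier and 11374 a symbol from a table of pig gene names. The name rule matched 163 symbols of that table after leaving out 2, and 114 were among the entries. The other 49, which include STAT6, CXCL12, CXCR4, TNFRSF1B and TNFSF12, were not analysed here. A few genes of the set are counted in its totals and are not reported here by name.

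Whole reads were recovered as follows. Library totals were sought for which each RPKM value gives whole reads at a whole gene length, within the rounding of the deposited digits. A pair of totals did so for 100% of 21398 entries above 0, and a deliberately wrong control total for 0% of 1000 low entries. Reads are the smallest that fit, so some (IL17RA, TNFRSF1A) may be divided by a common factor and their intervals too wide. The smallest reads sum to 90.4% of the control total. No count test was run, since each group has 1 library.

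Log2 ratios used a pseudocount of 1 RPKM and genes whose mean RPKM reached 1. Calls were by size, at 2-fold and 1.5-fold. All genes of the set with a mean of at least 1 are named, the lower ones by group, and of each pathway list the 2 highest and 2 lowest. The genes and lists were chosen with earlier results of these data known. Of the 38 genes, 14 overlap another gene in RefSeq's Sscrofa11.1 table, among them IL2RG, IRF5, IRF2, STAT2, STAT5A, STAT5B and TNFAIP8L2. The kit is not described as marking strand, so their reads are uncertain. Alternatives were 3 pseudocounts, 2 level limits, 3 rescalings and summed entries. Python 3.11.15, pandas 2.3.3 and scipy 1.17.1 were used.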

Additional observations from a re-analysis of the deposited data

How the results depend on the processing

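No paired analysis was possible because there is only 1 library in each group. The alternative with no pseudocount was chosen after seeing the data, and the others were planned. The 0 genes of the set at least 2-fold higher became 1 with no pseudocount (TNFAIP8L2). The 0 genes 1.5-fold higher became 2 and the 1 gene 1.5-fold lower became 2, both with a pseudocount of 0.1 and with none. Without the level limit the median log2 ratio of the set was 0.0060 in place of 0.15, over 96 genes in place of 38. In the other alternatives run, the median was between 0.08 and 0.19. The medians of the ligands (-0.01) and receptors (0.0048) were also near 0 without the limit, and under a level limit of 5 that of the ligands was -0.02. Among the 38 genes, IL1R1, IRF7, TNFAIP1 and TNFAIP3 turned sign under rescaling, and TNFRSF12A stayed between -0.87 and -0.78. Over all entries the 83 higher and 77 lower at 2-fold were 290 and 193 with a pseudocount of 0.1, 334 and 204 with none, 7 and 20 with 5, and 17 and 26 under a level limit of 5. At 1.5-fold, 454 and 313 became 934 and 565, 1021 and 591, 53 and 59, and 97 and 69 in the same order, and 785 and 482 without the limit. The interferon-induced median was 0.54 under a level limit of 5 and 0.27 with no pseudocount. Summing entries could change no value of the set, because none of its symbols stands on several entries. Why the other alternatives moved these values was not tested. Depth limits the low genes: 41 of 58 had fewer than 10 reads in both libraries.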

Other observations

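Markers within a leukocyte list went opposite ways, and the genes named here were chosen after their values were seen. Among T and natural killer cell markers, CD8A, the coreceptor of cytotoxic T cells, went from 1.57 to 0.644 RPKM, a ratio with a counting interval of 0.241 to 0.674. CD2, an adhesion molecule of T and natural killer cells, went from 0.750 to 1.81 RPKM (1.58 to 3.74). Among general leukocyte markers, TYROBP, a signalling adaptor of myeloid and natural killer cells, went from 11.3 to 7.83 RPKM (0.527 to 0.902), while LCP1, an actin-bundling protein of leukocytes, went from 2.82 to 4.17 RPKM (1.21 to 1.81). The macrophage markers CD68 (3.61 and 5.36 RPKM, 1.11 to 1.99) and MRC1 (1.29 and 0.959, 0.556 to 0.991) also lay on opposite sides of 1, and LYZ, the lysozyme of myeloid cells, had the largest ratio of that list (1.09 and 3.295 RPKM, 1.89 to 4.96). With 1 library per group none of these differences has a replicate check.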
